A study of Mus musculus with 9 samples.

Results

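Preparations labelled spermatogonia came from adult Balb/C mice kept for 25 weeks on a vitamin A-deficient diet (VAD 25 weeks, 3 arrays). They were compared with like-labelled preparations from mice on a normal diet (control, 3 arrays), 6 of the 9 Affymetrix arrays of the series. The arrays were chosen by their sample titles alone, and every probe set other than the manufacturer's controls entered the comparison. Each preparation came from the testes of 2 mice, digested with removal of the interstitial fraction, plated overnight and sedimented through an albumin gradient, with a stated purity above 90%. Serum levels of the retinol carrier RBP were measured to follow the vitamin A status of the mice, and their values were not used here. The other 3 arrays, from mice on the deficient diet for 18 weeks, entered the fit to share its estimate of spread. Neither the age of the control mice nor whether each array holds a separate preparation is stated in the labels, so p-values measure the spread between these samples, which may be technical.

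Vitamin A is converted in the testis to retinoic acid, which acts through nuclear receptors (RARs with RXRs) on genes such as Stra8 and Kit. Spermatogonia that do not receive it stay undifferentiated, and in long deficiency the tubules come to hold mainly Sertoli cells, the supporting cells of the epithelium, and undifferentiated spermatogonia. Sertoli cells seal the tubule with tight and gap junctions, secrete proteases and carrier proteins, and engulf dying germ cells.

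Replicate 3 of the control and replicate 3 of the deficient group stood apart and are called the dim pair. Their deposited signals had trimmed means of 22.9 and 23.2, against 58.1 and 59.6 on the other control arrays and 185 and 143 on the other 25-week arrays. Poly-A control RNAs had a median signal of 129.6 and 159.8 on replicates 1 and 2 at 25 weeks and of at most 7.0 on the other 7 arrays. The ratio of 3′ to 5′ probe sets of Actb, which rises as RNA is shorter or amplified further, was 7.82 and 7.92 on those 2 arrays and 4.92 and 5.49 on control replicates 1 and 2. In the dim pair it was 3.32 in the control and 4.95 at 25 weeks, so this ratio was higher at 25 weeks within both sets. The part of brightness and RNA quality in the results was not tested. In these bulk samples, a larger share of cells of a type and more RNA per cell cannot be told apart.

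Signals were compared as log2(signal + 3.26) after quantile normalization, which gives all arrays 1 distribution, with limma and a term for the dim pair. Each change below is the difference in mean log2 level, 25 weeks minus control, with its SE, and a gene is called where the Benjamini-Hochberg adjusted p over all 27022 kept probe sets is under 0.05. At 25 weeks 2308 probe sets rose and 1709 fell, and 1229 and 515 of them moved by at least 1. With 1 probe set for each of 13616 named genes, 1237 genes were higher (9.08% of those tested) and 1091 lower (8.01%). These shares are the background for the counts of gene lists below. In a short list a few calls move the share widely, and no list was tested as a set. With the replicate number added as a block, 1557 probe sets were higher and 1042 lower. Without the dim-pair term limma called 0 probe sets, with 3209 at an unadjusted p under 0.05.

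Which genes fell depends on the scaling. When arrays were centred on their medians instead, 2800 probe sets were called higher and 817 lower, and on the deposited scale, with no adjustment between arrays, 10571 and 7. The median change over all kept probe sets was -0.01, 0.07 and 0.92 on these 3 scales. All 2308 probe sets called higher had a positive difference on each scale, while 443 of the 1709 called lower had a negative one on each. The upward shift of the deposited scale (median 0.92) favours positive signs, so this contrast does not show that rises were steadier than falls. A gene described as lower is therefore lower relative to the rest of its array. Of the called probe sets, 2303 of the higher and 1704 of the lower had the same sign in the dim pair and in the other 4 arrays. They were called by a fit to these same arrays, which favours equal signs, so this gives no separate support. The share over all kept probe sets was not computed.

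**Figure D1:**
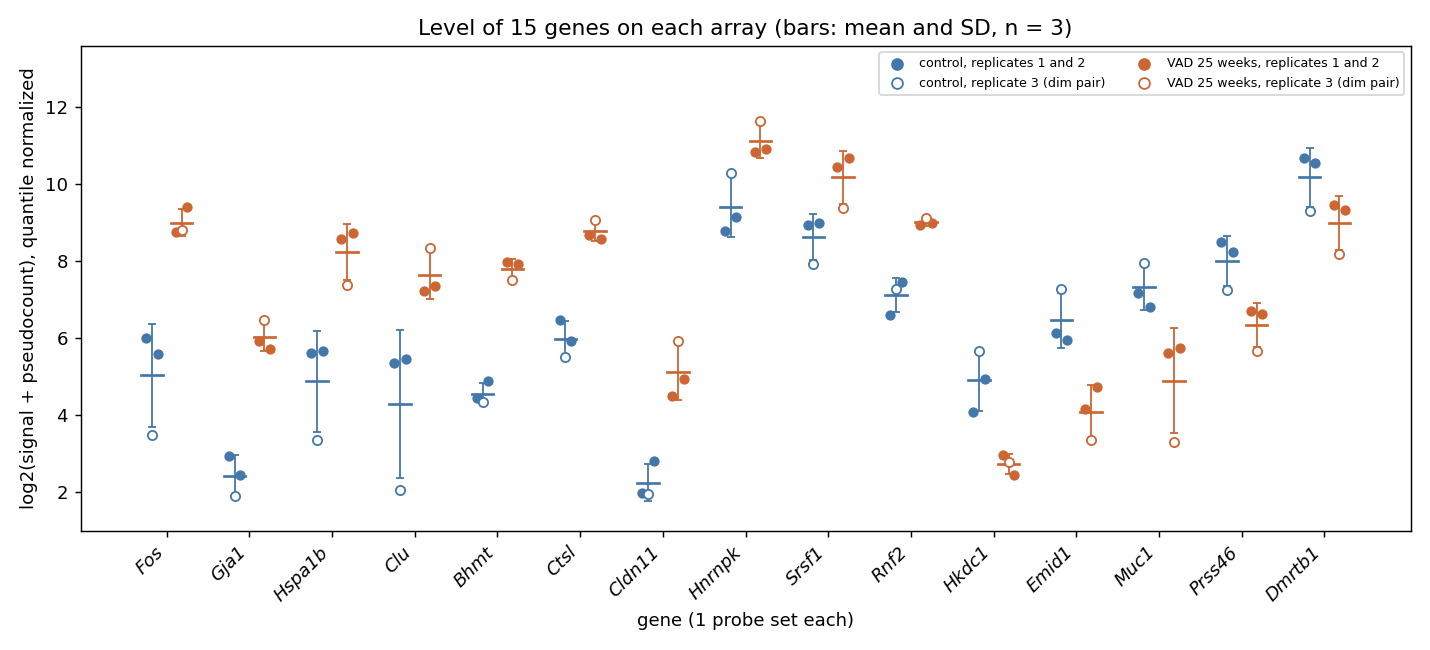
Normalized log2 levels of 15 genes on the 3 control and 3 VAD 25-week arrays, with open points for the dim pair and bars for the mean and SD (n = 3). Fos and Gja1, picked among genes whose groups do not overlap, stand clear of the control arrays on all 3 deficient arrays. Clu is set apart most strongly in the dim pair, where its control level was 2.07.

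The largest rise among genes whose groups did not overlap was in Fos, the immediate-early transcription factor (probe set 1423100_at). Its level was 6.02, 5.59 and 3.50 on the control arrays and 8.77, 9.40 and 8.82 at 25 weeks, a change of 3.96 ± 0.55 (SE, limma adjusted p = 0.0016). Every deficient array lay above every control array, as the rule for picking these genes required, and the control of the dim pair was the lowest. Of all called probe sets, 1459 of the 2308 higher and 845 of the 1709 lower did not overlap between the groups. Gja1, the gap junction protein connexin 43 of Sertoli cells (1415800_at), was at 2.94, 2.46 and 1.89 in controls and at 5.94, 5.72 and 6.47 at 25 weeks (change 3.61 ± 0.40, adjusted p = 0.00056). All 5 kept probe sets of Gja1 rose. Its deposited control signals, 2.81, 1.52 and 0.37, lay below each array's median, so the size of the change depends on the pseudocount: it was 4.45 with a pseudocount of 1 and 2.13 with 16. Hspa1b, an inducible HSP70 chaperone, had 5.62, 5.66 and 3.36 against 8.59, 8.75 and 7.40 (change 3.36 ± 0.56, adjusted p = 0.0037).

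Bhmt, which methylates homocysteine with betaine (1450624_at), was nearly equal within each group, at 4.44, 4.89 and 4.36 in controls and 7.97, 7.94 and 7.51 at 25 weeks. Its change of 3.25 ± 0.52 was 3.29 in replicates 1 and 2 and 3.15 in the dim pair. Clu, the secreted chaperone clusterin, moved unevenly: its change of 3.35 ± 0.68 was 1.88 in replicates 1 and 2 and 6.29 in the dim pair, where the deposited control signal was 0.73, too dim to fix the size of that difference. The change was 3.77 with a pseudocount of 1 and 2.52 with 16. All 4 kept probe sets of Clu were called higher. Lyz1, a lysozyme, rose by 2.88, Slc25a4, the mitochondrial ADP/ATP carrier, by 2.77, and Mapre2, a microtubule end-binding protein, by 2.82. The other genes among the 20 highest were Eid1, Cldn11, Ctsl, Tmem255a, Reep1, Gpm6b, Mmd2, Lcn2, Dpy19l4, Cst12, Scara5 and 4933402E13Rik, at 2.46 to 2.98. Of the 20, only Lcn2, an iron-siderophore carrier, lost its call without the dim pair (adjusted p = 0.191) and with the replicate block (0.0577).

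Among the 20 genes with the largest decreases of those that did not overlap and were negative on all 3 scales, Muc1, a membrane mucin (1449199_at), was at 7.19, 6.81 and 7.96 in controls and at 5.62, 5.75 and 3.32 at 25 weeks (change -2.43 ± 0.50, adjusted p = 0.0097). Emid1, an extracellular matrix protein, had 6.14, 5.96 and 7.29 against 4.17, 4.73 and 3.36 (change -2.38 ± 0.39, adjusted p = 0.0035). In both genes the dim pair held the highest control and the lowest deficient value. Hkdc1, a hexokinase-like enzyme, had 4.09, 4.94 and 5.68 against 2.96, 2.44 and 2.79 (change -2.17 ± 0.40). Prss46, a serine protease gene, had the smallest SE of the 20, falling from 8.49, 8.24 and 7.26 to 6.72, 6.62 and 5.67 (change -1.66 ± 0.16, adjusted p = 0.00024), with the dim pair lower in each group and the difference at -1.59 there and -1.70 in the other arrays.

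The other 16 of these genes changed by -2.04 to -1.67. Snai2, a repressor of epithelial genes, Prr22, Ptpn18, Togaram2, Gm11267, Oas1a, Gtsf1l, Amotl2 and Slc25a25 were called without the dim pair as well. Rsad2, Itgb1, Wnt7b, Rbfox3, Kcna7, Zc3h12a and Fcho1 were not, with adjusted p values of 0.0595 to 0.137. Itgb1, the β1 integrin, differed by -3.53 in the dim pair and by -0.99 in the other arrays, and the mean of its 2 probe sets was not called (-0.81). With the replicate block, Gtsf1l, Oas1a, Rsad2, Itgb1, Wnt7b, Amotl2, Zc3h12a and Slc25a25 lost their calls (adjusted p 0.0508 to 0.0957), as did Kcna7, just above 0.05. With all probe sets of a gene averaged, Rsad2, Itgb1, Wnt7b, Fcho1 (-0.30) and Slc25a25 (-1.0) were not called. On the deposited scale, Muc1, Emid1 and Hkdc1 alone among the 20 kept an adjusted p under 0.05 (0.0389, 0.0306 and 0.0472).

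**Figure D2:**
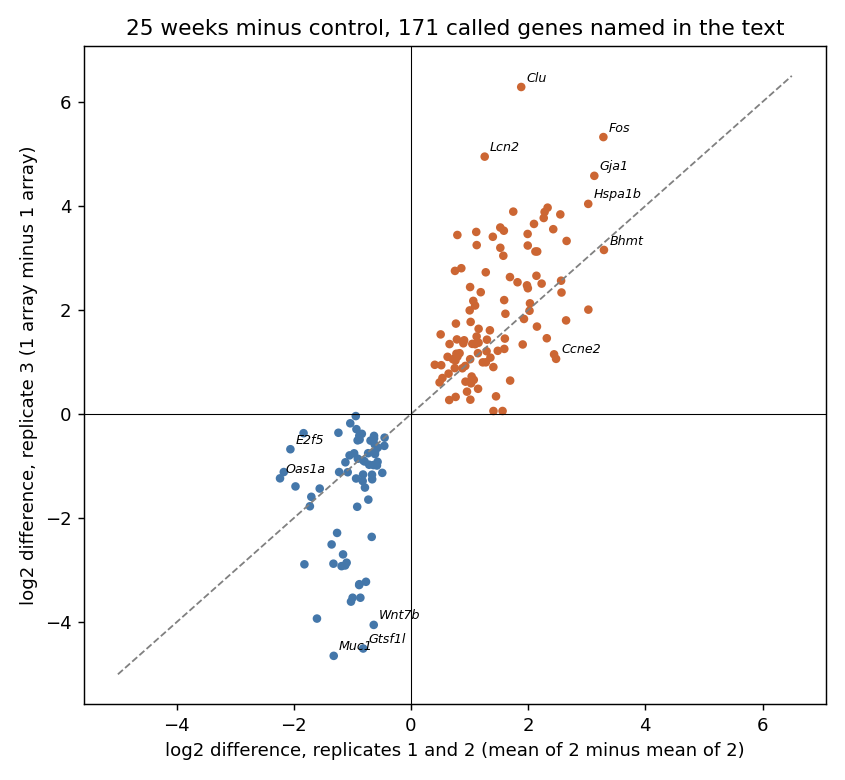
Log2 difference between 25 weeks and control in replicates 1 and 2 (horizontal axis) and in the dim pair (vertical axis) for the called genes named in the text, orange where higher and blue where lower. The points lie in the quadrants of equal sign, with Clu, Lcn2, Muc1, Gtsf1l and Wnt7b far from the dashed line of equal differences. These genes were called by a fit to the same arrays, which favours equal signs.

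Many Sertoli cell markers rose. Of 31 listed markers, 26 are on the array with a name and 22 passed the filter on low signal, of which 12 (54.5%) were higher and 0 lower, against 9.08% and 8.01% of all genes. Their median change was 1.30, and the median over all genes was -0.03. Their mean log2 level was 4.55, 4.37 and 4.18 on the control arrays and 5.41, 5.35 and 5.94 at 25 weeks, without overlap. Ctsl, a cathepsin secreted by Sertoli cells, had 6.47, 5.94 and 5.52 in controls and 8.69, 8.57 and 9.08 at 25 weeks (change 2.80 ± 0.38, adjusted p = 0.0016). Cldn11, the claudin of the tight junctions between Sertoli cells, had 1.97, 2.81 and 1.96 against 4.51, 4.94 and 5.93 (change 2.88 ± 0.42). Its control signals were also below the array medians, and the change was 3.80 with a pseudocount of 1 and 1.48 with 16. For both genes the highest value was that of the deficient array of the dim pair.

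Cst12, a secreted cystatin, rose by 2.48, the β-defensin Defb19 by 2.08, Aard by 1.99 and Dhh, the desert hedgehog ligand that Sertoli cells send to interstitial cells, by 1.76. The remaining called markers, Cst9, Rhox5, Wt1, Inhbb and Tjp1, had changes of 1.43, 1.51, 1.27, 1.33 and 0.62. The last 4 of these, and the genes in the next sentence, fall outside the naming rule and were picked after their values were seen. Not every Sertoli marker moved: Fshr, the receptor for follicle-stimulating hormone, had a difference of 1.13, Vim of 1.20, Amhr2 of 1.52 and the transcription factor Gata4 of -0.98, none of them called. The 10 markers that were not called reached down to -1.09, the lowest difference of the list. Without the dim pair Fshr was at -0.01 and 9 markers were called. Amhr2 entered there (adjusted p = 0.0152), and Cst9, Rhox5, Wt1 and Inhbb left (0.0794 to 0.149). With the replicate block 7 were called, Tjp1 (0.0518) and the same 4 leaving, and 7 without the first 25-week array.

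Genes of proteolysis and of cell junctions overlap with this list, so the counts are not independent. Of 17 kept cathepsins and cystatins, 5 rose and 0 fell, with a median change of 0.73. Beside Ctsl, Cst12 and Cst9, these were Lgmn, the lysosomal asparaginyl protease (2.01 ± 0.45, adjusted p = 0.013), and Ctsc, a dipeptidyl protease (1.15 ± 0.34). The count was 3 with the replicate block, where Ctsc (adjusted p = 0.0655) and Cst9 (0.0506) left, 3 without control replicate 1 or 25-week replicate 2, and 2 without 25-week replicate 1.

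Of 27 kept junction genes, 6 rose and 2 fell. Gja1 and Cldn11 led, followed by Cldn12, a further claudin (1.72 ± 0.25, adjusted p = 0.0018), Ctnnb1, the β-catenin of adherens junctions (1.26 ± 0.17, adjusted p = 0.0015), Cgn, cingulin (1.03), and Tjp1, ZO-1 (0.62). Cdh2, N-cadherin, fell by 0.75 and Jam2, a junctional adhesion molecule picked after its value was seen, fell by 0.75. Both are positive on the deposited scale, at 0.23. A second probe set of Cdh2 was called higher, and the mean of both differed by -0.04. With the replicate block 4 rose, Cgn (adjusted p = 0.0621) and Tjp1 (0.0518) no longer being called. The count of genes that fell was 0 with median centring and without control replicate 1 or 2 or 25-week replicate 1, and 1 without control replicate 3 or 25-week replicate 2.

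Among 40 kept signals and receptors of the gonad, 8 rose and 2 fell. Ptch1, the hedgehog receptor that is itself induced by hedgehog signals, was at 2.67, 2.90 and 3.18 in controls and at 4.78, 5.43 and 4.64 at 25 weeks (change 2.03 ± 0.33, adjusted p = 0.0034). It rose beside its ligand gene Dhh, which was at 3.16, 3.51 and 1.99 against 4.80, 4.43 and 4.71. In both genes each deficient array lay above each control array. Igfbp4, which binds insulin-like growth factors, rose by 1.24. Tgfbr1, Bmpr1a and Bmpr2, receptors of the TGF-β family, rose by 0.69, 0.96 and 1.0, while 6 other receptors of that family in the list were not called, 4 of them with negative differences. With all probe sets averaged, Igfbp4 and these 3 receptors were not called (adjusted p 0.141 to 0.321). Nrtn, neurturin, fell by 0.94 and Egfr, the epidermal growth factor receptor, by 0.70. Both were picked after their values were seen, and both are positive on the deposited scale, at 0.027 and 0.43. With the replicate block 4 were higher and 0 lower, and Bmpr1a, Bmpr2, Nrtn and Egfr lost their calls (adjusted p 0.0664 to 0.0898). The number of higher genes was 4 with all probe sets of a gene averaged, 3 without control replicate 1 or 25-week replicate 1 or 2, and 4 without control replicate 2.

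In the Wnt and Notch list, 3 of 38 kept genes rose and 2 fell, near the background. Rbpj, the DNA-binding partner of Notch, stood out by its size, at 2.01 ± 0.25 (adjusted p = 0.00092), with 2.02 in replicates 1 and 2 and 1.99 in the dim pair. Fzd6, a Wnt receptor, rose by 1.44, but the mean of its probe sets differed by 0.63 and was not called (adjusted p = 0.104).

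Markers of other somatic cells were examined beside the Sertoli list. Leydig cell markers, from the steroid-producing cells between the tubules, had 8 kept members, of which 1 rose (12.5%, near the background). It was Cyp17a1, the enzyme that leads to androgens (1417017_at), at 6.06, 5.54 and 3.95 in controls and 7.40, 7.26 and 7.54 at 25 weeks (change 2.21 ± 0.51, adjusted p = 0.015). The dim-pair control was lowest, and without the pair its adjusted p was 0.0644, while Hsd3b1 was called there (0.0100). Cyp11a1, Hsd3b1 and Star, which act before it in steroid synthesis, had differences of 1.29, 1.29 and 0.78 and were not called. The mean level of the 8 markers was 5.83, 5.87 and 4.62 in controls and 6.33, 6.55 and 6.23 at 25 weeks. Sult1e1, the estrogen sulfotransferase, rose by 2.37 ± 0.59 and made 2 of 12 kept steroid genes (16.7%) higher with Cyp17a1. It was not called without 3 of the 9 arrays in turn, with the largest adjusted p (0.0863) without control replicate 1.

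Macrophage markers split. Of 16 kept, 5 rose and 1 fell, while the median change was 0.03. Lyz1 was at 3.36, 3.18 and 3.31 in controls and at 6.27, 5.60 and 6.64 at 25 weeks. It was followed by C1qb, a complement subunit (2.06 ± 0.41), Mrc1, the mannose receptor (1.48), Csf1r, the receptor for colony-stimulating factor 1 (1.06), and Lyz2 (0.83). H2-Ab1, a class II antigen-presenting gene, fell by 1.60, from 6.08, 6.06 and 4.65 to 4.92, 4.70 and 2.36. Adgre1 (F4/80), a defining macrophage marker picked after its value was seen, had a difference of -0.32 that was not called. Csf1r and Lyz2 were not called with the replicate block (adjusted p 0.0806 and 0.107), which left 3 higher. Without control replicate 1 or 2 or 25-week replicate 2 there were 3, and without 25-week replicate 1 or 18-week replicate 2 there were 2. Lyz1 and C1qb stand on probe sets marked as prone to cross-hybridisation, and Lyz1 and Lyz2 are close paralogs.

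Of the peritubular myoid markers 1 of 7 rose (Mylk, 0.53), with 3 called without the dim pair and 0 with the replicate block, and of the 7 endothelial and 6 fibroblast markers 0 were called. No red blood cell gene passed the filter. The part of other cell types in the changes was not tested.

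**Figure D3:**
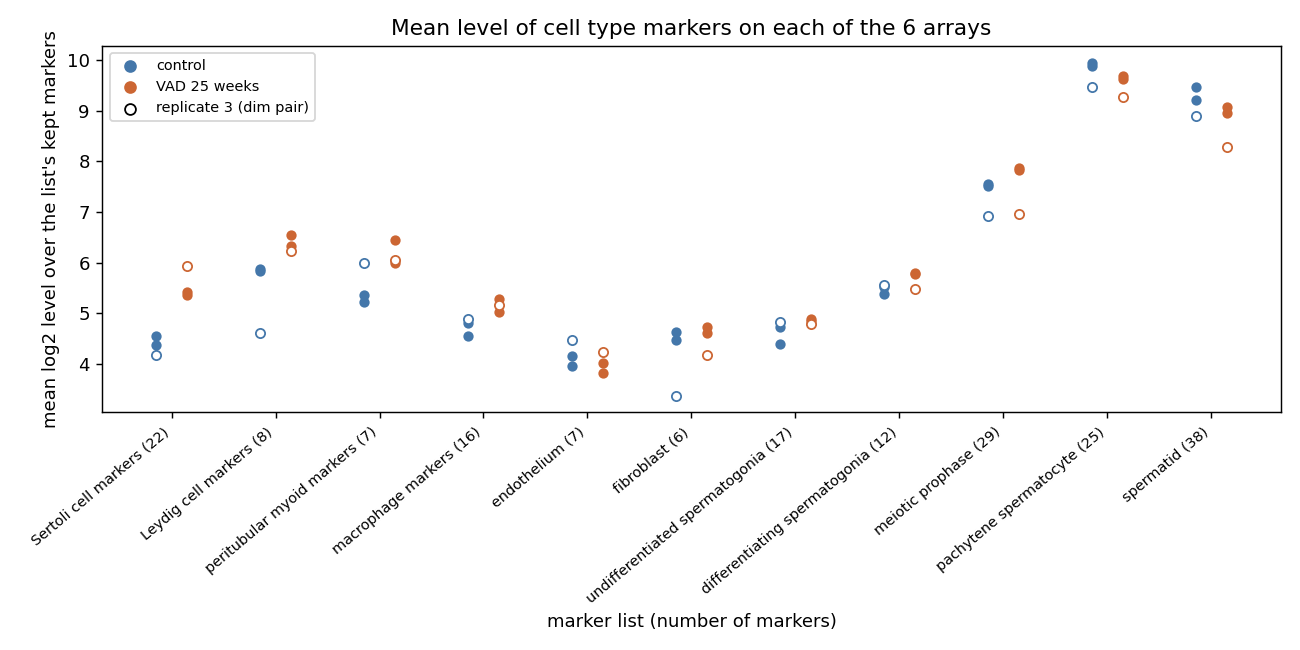
Mean normalized log2 level of the kept markers of each cell type on the 3 control and 3 VAD 25-week arrays, with open points for the dim pair. Sertoli, Leydig and macrophage means of the deficient arrays lie above all control means, spermatid means of the control arrays overlap those of the deficient arrays, and endothelial means overlap too.

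Several genes of fatty acid metabolism rose. Of 31 kept genes of fatty acid metabolism, 7 rose (22.6%) and 1 fell. Scd2, a desaturase, had 4.87, 4.71 and 4.30 in controls and 6.99, 6.87 and 6.96 at 25 weeks (change 2.31 ± 0.36, adjusted p = 0.0027). Acsl4, which activates arachidonic acid, rose by 2.14, Elovl5, an elongase, by 1.83, and Cpt1a, the gate of mitochondrial fatty acid import, by 1.79. Pnpla2, the lipase that opens lipid droplets, fell by 0.75 and was positive on the deposited scale (0.21). Leaving out the dim pair or adding the replicate block left 5 genes higher, with Elovl5 at an adjusted p of 0.081 without the pair. The number lower was 3 without the dim pair or either of its arrays, 2 without 18-week replicate 3, and 0 without any 1 of control replicates 1 and 2 and 25-week replicates 1 and 2.

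In the lysosome and lipid efflux list, 7 of 24 rose and 2 fell, but this count was fragile, at 1 without the dim pair. It was also 1 without either single array of the pair or without 25-week replicate 2, and 2 to 4 without control replicate 1 or 2, 25-week replicate 1 or 18-week replicate 3. Atp6v1a, a proton pump subunit, rose by 0.66, Abca1, the cholesterol exporter, by 1.43, and Psap, prosaposin, by 1.05. Neu1, a sialidase, fell by 1.51 and Plin2, the lipid droplet coat protein, by 0.84. Without the dim pair Abca1 and Psap were not called (adjusted p 0.0893 and 0.0847) and Neu1 fell below the filter, and with all probe sets averaged Atp6v1a (0.23) and Abca1 (0.53) were not called. Of 23 kept cholesterol synthesis genes, 1 rose (Hmgcs1, 0.93) and 2 fell (Fdft1 by 0.89, Mvk by 1.20), which is near the background. Of 21 genes of one-carbon metabolism, 3 rose and 2 fell: Bhmt was followed by Ahcyl1, a relative of adenosylhomocysteinase (0.88), and Shmt1 fell by 0.74. Slc38a5, a glutamine transporter, rose by 2.32 ± 0.46, and passed the filter in 5 of the 9 fits that left out an array. Of 15 kept iron genes 4 were higher, but 1 without the dim pair and 0 with the replicate block.

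Some genes of retinoid handling rose. Of 23 kept genes of retinoid transport and metabolism, 5 rose (21.7%) and 1 fell. Aldh1a1, one of the enzymes that make retinoic acid (1416468_at), was at 7.22, 7.46 and 5.05 in controls and at 8.98, 8.87 and 8.58 at 25 weeks (change 2.23 ± 0.50, adjusted p = 0.013). Here the control of the dim pair was again lowest. Fabp5, which can carry retinoic acid to another nuclear receptor, rose by 2.07 ± 0.43, and the dehydrogenases Adh5, Adh1 and Rdh14 by 1.49, 0.89 and 0.78. Dhrs4, a retinal reductase, fell by 1.05. Without the dim pair 3 were called, with Aldh1a1 at an adjusted p of 0.0615, Adh5 at 0.0744 and Adh1 at 0.0679. The replicate block also left 3, Adh1 (0.0597) and Rdh14 (0.0580) losing theirs. Without 25-week replicate 2 there were 2, and without either array of the dim pair or 25-week replicate 1 there were 3. The number that fell was 2 without the dim pair or without 18-week replicate 2. With all probe sets averaged, 4 rose and 3 fell. Lrat, which stores retinol as esters, had a difference of -0.03 and Cyp26a1, which degrades retinoic acid, of 0.34. Neither was called, and both were picked after their values were seen.

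Of 12 kept genes known to be induced by retinoic acid, 2 rose (16.7%) and 0 fell, against 9.08% and 8.01% of all genes. With so few members this count cannot be told from the background. The 2 that rose were Rarres1 (2.15 ± 0.36, adjusted p = 0.0036) and Kit, the stem cell factor receptor of differentiating spermatogonia. Kit had 2.86, 3.65 and 2.51 in controls and 4.57, 4.54 and 3.94 at 25 weeks (change 1.34 ± 0.32, adjusted p = 0.019). Its second kept probe set was not called, and the mean of both differed by 0.70 with an adjusted p of 0.250. Stra8, the gene by which retinoic acid opens meiosis, had 4.59, 3.15 and 5.70 against 4.06, 4.51 and 4.45 (difference -0.14 ± 0.53), with the groups interleaved. It was picked after its value was seen. Dhrs3 and Rec8, also targets, had differences of -0.76 and -0.68 and were not called. Without the dim pair Rec8 was called lower (-1.11, adjusted p = 0.0092). With all probe sets averaged Dhrs3 was called lower (adjusted p = 0.0316). Of the 12 genes, 1 fell in each of these fits and without either array of the dim pair. The number that rose was 3 without the dim pair. It was 1 without control replicate 1 or 25-week replicate 1 or 2, and 1 with all probe sets averaged. Among 13 kept receptors and coactivators, 3 rose (23.1%), Ncoa2 by 1.23, Tacc1 by 0.59 and Nr2c2 by 0.53, and Ncoa3 fell by 0.80. Ncoa2 alone of these kept its call with each single array left out, and none of the 3 that rose was called when all probe sets of a gene were averaged. Tacc1 and Ncoa3 were not called with the replicate block (adjusted p 0.0597 and 0.0592) or without the dim pair (0.176 and 0.110). Ncoa3 had 0.28 on the deposited scale.

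Germ cell genes differed by stage. Of 32 undifferentiated spermatogonia markers, 30 were on the array and 17 passed the filter. Of these 2 rose (11.8%, near the background of 9.08%) and 0 fell. The number that rose was 1 without control replicate 1 or 25-week replicate 1 or 2. Id4, a helix-loop-helix inhibitor that marks stem cells (1423259_at), was at 8.0, 8.23 and 8.12 in controls and at 9.15, 9.36 and 9.29 at 25 weeks (change 1.15 ± 0.13, adjusted p = 0.00063). It changed by 1.14 in replicates 1 and 2 and by 1.17 in the dim pair. The Polycomb gene Bmi1 rose by 0.93. The GDNF receptor Gfra1 (-0.65), its target Bcl6b (-1.20) and Zbtb16 (0.45), the zinc finger protein PLZF, were not called.

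Of 12 kept markers of differentiating spermatogonia, 3 rose and 1 fell. Tex101, a surface protein of germ cells, rose by 1.24 ± 0.14, and Dnmt3b, a DNA methyltransferase, by 1.27. With Kit these made 3, and the count was 1 without control replicate 1 or 25-week replicate 1 or 2. Dmrtb1, which governs the passage from mitosis to meiosis, fell from 10.69, 10.56 and 9.31 to 9.46, 9.34 and 8.19 (change -1.19 ± 0.11, adjusted p = 0.00017). The dim-pair control lay below 2 deficient arrays, so the groups overlapped, but within each set the deficient arrays were lower. The difference was -1.22 in replicates 1 and 2 and -1.11 in the dim pair.

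Meiotic prophase genes were mostly higher where they changed: 7 of 29 rose and 1 fell. Tex12, a protein of the synaptonemal complex, rose by 1.34 ± 0.21, Sycp2 by 1.08 and Sycp3 by 0.93, both parts of its lateral elements. Terb1, which ties telomeres to the nuclear envelope, rose by 0.85 and Ythdc2, an RNA helicase needed to enter meiosis, by 0.90. Syce1 fell by 0.68 but was positive (0.17) on the deposited scale. The count of 7 was 8 without the dim pair and 5 to 8 with any single array left out.

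The piRNA pathway, which silences transposons in germ cells, had the second largest share of higher genes among the lists in the plot of members called, with 9 of 20 rising (45%) and 2 falling. Piwil1, the PIWI protein of pachytene cells (1460340_at), was at 8.85, 8.82 and 8.53 in controls and at 9.85, 9.64 and 9.95 at 25 weeks (change 1.08 ± 0.13, adjusted p = 0.00085). Piwil2 rose by 0.79, Pnldc1, which trims piRNAs, by 1.09, Asz1 by 0.77 and the helicase Tdrd9 by 0.59. Gtsf1 fell by 0.58, with 0.27 on the deposited scale, and its relative Gtsf1l fell by 2.04, with -4.50 in the dim pair and -0.81 in the others. With the replicate block Gtsf1l was not called (0.0684), and the mean of 2 probe sets of Asz1 was 0.11 and not called. The number rising was 8 without the dim pair and with the replicate block, but 3 without control replicate 1 or 25-week replicate 1 and 5 without 25-week replicate 2.

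Later stages were lower relative to the array. All 38 spermatid genes on the array and all 25 pachytene genes passed the filter, although the samples are labelled spermatogonia. The spermatid genes had mean levels of 9.48, 9.22 and 8.89 in controls and 8.94, 9.07 and 8.27 at 25 weeks. Kept markers of undifferentiated spermatogonia had 4.39, 4.73 and 4.82 in controls and 4.88, 4.85 and 4.79 at 25 weeks. Levels of different probe sets do not give the shares of cells, which were not measured. Of the 38, 15 fell (39.5%) and 0 rose, with a median change of -0.46. Crem, the transcription factor of spermatids (1430847_a_at), had 9.18, 9.02 and 8.38 in controls and 8.01, 8.03 and 7.27 at 25 weeks (change -1.09 ± 0.14, adjusted p = 0.00098), although the mean of its 3 probe sets was not called (-0.35, adjusted p = 0.113). Acr, the protease of the acrosome, had 9.30, 9.21 and 8.89 against 8.42, 8.51 and 7.98 (change -0.83 ± 0.14). Tssk1, a spermatid kinase, fell by 0.86, Catsper2, a sperm calcium channel subunit, by 0.61, the chaperone Dnajb3 by 0.56 and Odf2, of the outer dense fibres, by 0.51.

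The median of the spermatid list was 0.47 on the deposited scale, and of these 6 genes Crem alone stayed negative there (-0.10). The list's median stayed below that of all genes under each scaling. Without the dim pair 12 fell, with the replicate block 11, without control replicate 1 it was 8 and without 25-week replicate 1 it was 7. Of 25 pachytene genes, 9 fell (36.0%) and 3 rose, the 3 becoming 1 with the replicate block. Ccna1, the cyclin of meiotic division, fell by 0.90, Hspa2, a meiotic HSP70, by 0.64, Spata16 by 0.63, Spag6, of the flagellum's central pair, by 0.64 and Adam3 by 0.45. All 5 were positive on the deposited scale, at 0.076 to 0.36. That count fell to 2 or 3 without control replicate 1 or 2 or 25-week replicate 1 or 2, and to 5 with median centring. Of 41 genes of cilia and flagella, 9 fell (22%) and 0 rose, among them the tektins Tekt4 (-1.34) and Tekt3 (-0.59), the dynein light chain Dnal1 (-0.99) and the radial spoke genes Rsph6a (-0.68) and Rsph9 (-0.72). Of these 5, Tekt4 alone was negative on the deposited scale (-0.40). The mean of the 3 probe sets of Dnal1 was -0.18 and not called. Here 8 fell without the dim pair, 4 or 5 without control replicate 1 or 2 or 25-week replicate 2, and 5 with median centring.

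**Figure D4:**
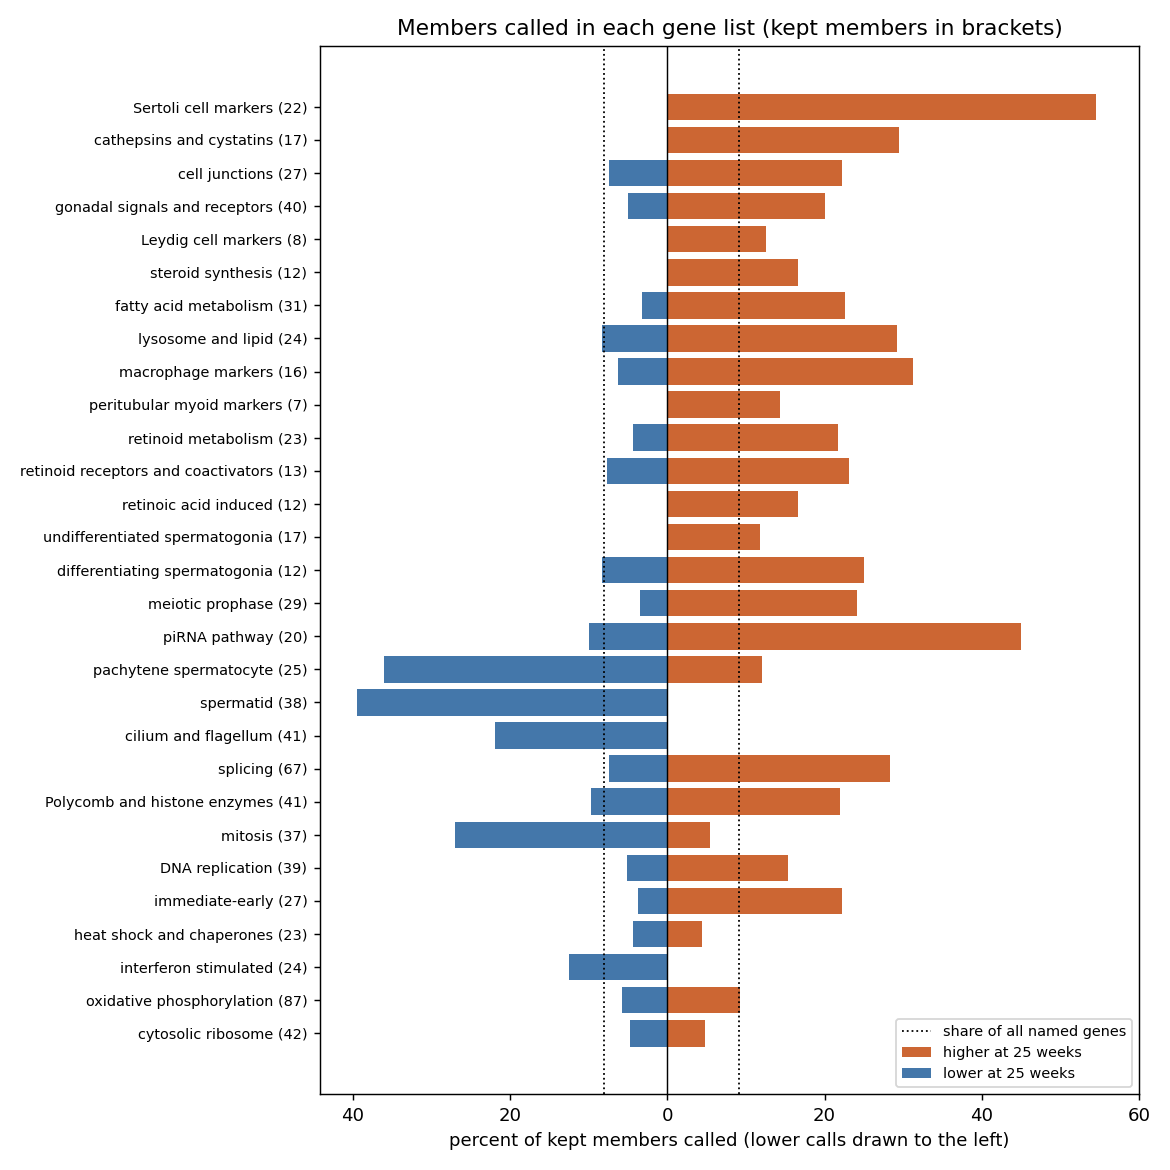
Percent of the kept members of 29 of the 51 gene lists called higher (orange, to the right) or lower (blue, to the left) at 25 weeks, with dotted lines at the share of all named genes (9.08% and 8.01%). Sertoli markers (54.5%) and piRNA genes (45%) reach furthest to the right, spermatid (39.5%) and pachytene genes (36.0%) furthest to the left.

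Splicing factors rose in a list not tied to a cell type. Of 67 kept, 19 rose (28.4%) and 5 fell. Hnrnpk, which binds poly-C stretches (1460547_a_at), was at 8.80, 9.15 and 10.31 in controls and at 10.84, 10.91 and 11.65 at 25 weeks (change 1.72 ± 0.15, adjusted p = 0.00017). Srsf1 had 8.95, 9.0 and 7.94 against 10.47, 10.69 and 9.39 (change 1.55 ± 0.12, adjusted p = 0.00011), with the dim pair lower in each group and a like distance apart. Srsf3 rose by 1.32, Snrpe, a core snRNP protein, by 0.93, Hnrnpll by 0.94 and Ptbp2, the tract-binding protein of neurons and germ cells, by 0.83. The number rising was 20 without the dim pair, 16 with the replicate block and 13 to 20 with any single array left out. For Hnrnpk the mean of its 4 probe sets changed by 0.89, and for Srsf1 that of 7 by 1.03, both called.

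Of 41 Polycomb and histone-modifying genes, 9 rose and 4 fell. Rnf2, the ubiquitin ligase of Polycomb complex PRC1 (1424873_at), was at 6.62, 7.46 and 7.29 in controls and at 8.95, 8.99 and 9.12 at 25 weeks (change 1.90 ± 0.19, adjusted p = 0.00040). Its partners Pcgf5 (0.88) and Bmi1 (0.93) rose too, as did the demethylase Kdm5a (1.15). The methyltransferases Ehmt2 and Nsd2 fell by 0.77 and 0.83 and were positive on the deposited scale (0.14 and 0.22). With all probe sets averaged, Kdm5a (0.43, adjusted p = 0.307) and Nsd2 (-0.13, 0.725) were not called. The number rising was 6 with the replicate block and 4 or 5 without control replicate 1 or 25-week replicate 1 or 2. In the DNA methylation list, 2 of 16 rose (12.5%, near the background), Mbd1 (1.39 ± 0.17) and Dnmt3b. Dnmt3l, a cofactor of methylation in germ cells, fell by 1.59 (adjusted p = 0.0509 without the dim pair and 0.0648 with the replicate block).

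Cell cycle genes moved both ways. Of 37 genes of mitosis, 10 fell (27.0%) and 2 rose. Plk1, a mitotic kinase, was at 8.51, 8.11 and 9.67 in controls and at 7.41, 7.33 and 8.43 at 25 weeks (change -1.04 ± 0.19, adjusted p = 0.0059). The dim-pair array at 25 weeks lay above one control, so the groups overlapped. Cdca8, Aurka and Kif23, which act in chromosome segregation and cytokinesis, fell by 1.03, 0.73 and 0.72. On the deposited scale Plk1 was at -0.11, Cdca8 at 0.066, Aurka at 0.14 and Kif23 at 0.29. Kif23 was not called without the dim pair (0.0599), nor Cdca8 (-0.27) with all probe sets averaged. Mad2l1, of the spindle checkpoint, rose by 1.18. With median centring 4 fell, with the replicate block 6, and 4 or 5 without control replicate 1 or 2 or 25-week replicate 1 or 2. Of 25 genes of the G1 phase, 4 rose and 1 fell. Ccne2, cyclin E2, had 6.12, 6.54 and 4.91 against 8.87, 8.75 and 5.97 (change 2.01 ± 0.25, adjusted p = 0.0010), with the dim pair lower in each group. Cdk4 rose by 1.58 and E2f5 fell by 1.60. In DNA replication 6 of 39 rose and 2 fell, with Gins1 at 1.18 and Rfc4 at 0.78, and 2 rose without control replicate 1 or 25-week replicate 1 or 2, 2 with probe sets averaged, where Gins1 and Rfc4 were at 0.40 and 0.38 and not called, and 3 with the replicate block. Tuba1a, an α-tubulin, was at 6.61, 6.49 and 6.43 in controls and 8.59, 8.5 and 9.67 at 25 weeks, on a probe set prone to cross-hybridisation. Of 32 tubulin and actin genes, 5 rose and 4 fell, with Map1lc3b, of autophagosomes, at 0.90 and the microtubule-binding Map4 at -0.96.

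Immediate-early genes, which cells switch on within minutes of a stimulus, rose in 6 of 27 cases and fell in 1, with a median change of 0.76. Besides Fos these were Rhob (2.07), Fosb (2.06), the phosphatase Dusp1 (1.91), the mRNA-decay factor Zfp36 (1.68) and Jun (0.85, picked after its value was seen). Nr4a3 fell by 1.84. Without the dim pair 4 rose, Zfp36 and Jun having adjusted p values of 0.106 and 0.164, and the same 2 were lost with the replicate block (0.0730 and 0.0989). Nr4a3 was not called without the dim pair (0.0848). All samples were plated overnight before the gradient. Dusp1 was at 5.10, 5.36 and 2.32 in controls and 6.17, 6.51 and 5.82 at 25 weeks.

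The cAMP response element TGACGTCA, which reads the same on both strands, was found in 2 of the 22 immediate-early promoters with a RefSeq sequence. All 27025 promoters of the same 300 bases, from 250 before the start to 50 after, held it in 1.88% of cases. Among genes called higher 3.8% of promoters held it and among those called lower 3.7%. The 2 immediate-early carriers include 1 gene that was not called. The element was also present in a called gene. Dusp1 carried it, as shown in capitals in 100 bases of its promoter (GRCm38.p6, chr17:26508562-26508661, minus strand):
Dusp1: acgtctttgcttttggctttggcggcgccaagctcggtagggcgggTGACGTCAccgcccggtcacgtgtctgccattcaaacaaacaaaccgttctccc

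Of 23 chaperones 1 rose, Hspa1b, and 1 fell, Hspa2, below both background shares. With all probe sets of a gene averaged, 6 chaperones were called higher. Hspa1a, its near-identical neighbour, had a difference of 1.28 that was not called, and array probes may not separate these genes. The core of the heat shock element, GAANNTTC, was in 8 of 19 chaperone promoters and in 7.95% of all. Hspa1b was the only called chaperone that carried it. Of the other carriers, Hspa1a (1.28), Hsph1 (0.30) and Dnaja1 (0.22) had positive differences. Hspb8 (-0.54), Hspb1 (-0.51), Hspe1 (-0.41) and Bag3 (-0.30) had negative ones. Among genes called higher 6.04% of promoters held the core and among those called lower 5.71%, below the share of all promoters. In Hspa1b it lies upstream of the start, shown in capitals (GRCm38.p6, chr17:34959289-34959388, minus strand):
Hspa1b: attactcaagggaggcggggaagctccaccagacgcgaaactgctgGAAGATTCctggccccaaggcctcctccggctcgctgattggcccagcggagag

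In the unfolded protein response 1 of 26 rose and 3 fell. Xbp1, a factor of that response, rose by 1.42 but not without the dim pair (adjusted p = 0.0685) or with the replicate block (0.0631). Ddit3, the factor CHOP, fell by 0.98 and Pdia6, a disulfide isomerase, by 0.66, with 0.090 and 0.29 on the deposited scale. Bcl2l2, a survival factor of the BCL2 family, rose by 2.00 ± 0.41. It was 1 of 2 higher genes (8%, near the background) among 25 of p53 and apoptosis.

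Of 24 interferon-stimulated genes 0 rose and 3 fell (12.5%), with a median of -0.04. Oas1a, which senses double-stranded RNA, was at 5.79, 4.19 and 4.73 in controls and at 2.83, 2.69 and 3.50 at 25 weeks (change -1.90 ± 0.52, adjusted p = 0.032). Rsad2, the antiviral protein viperin, had 5.04, 4.83 and 6.41 against 3.91, 3.92 and 2.81 (change -1.88 ± 0.46), and Stat2, which carries the interferon signal to the nucleus, had 4.99, 4.94 and 4.28 against 4.27, 4.32 and 1.93 (change -1.23 ± 0.37). Oas1a and Rsad2 did not overlap between the groups and Stat2 did by a small margin. None of the 3 was called with the replicate block (adjusted p 0.0519 to 0.0976), and Oas1a alone was called without the dim pair (0.0348). The count was 1 without control replicate 1 or 3 or 25-week replicate 1 or 2, and Stat2 was called in none of the 9 fits that left out an array. Of the 24 genes, 12 had a positive difference.

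The core of the interferon response element, GAAANNGAA read on either strand, was found in the promoters of these 3 genes. It was in 10 of 19 promoters of the list and in 8.57% of all. The other carriers in the list were not called. B2m (1.12), Ddx60 (0.85), Ifitm3 (0.68), Ddx58 (0.55) and Trim25 (0.27) had positive differences, and Ifitm2 (-0.29) and Eif2ak2 (-0.51) negative ones. The stretches of the 3 called members are shown, with the core in capitals (overlapping matches joined; GRCm38.p6). Oas1a is from chr5:120907489-120907588 on the minus strand, Rsad2 from chr12:26456518-26456617 on the minus strand and Stat2 from chr10:128270248-128270347 on the plus strand.
Oas1a: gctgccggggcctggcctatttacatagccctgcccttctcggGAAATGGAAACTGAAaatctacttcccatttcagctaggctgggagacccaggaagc
Rsad2: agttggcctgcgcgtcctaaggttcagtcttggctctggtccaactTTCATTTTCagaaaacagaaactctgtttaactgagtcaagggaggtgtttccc
Stat2: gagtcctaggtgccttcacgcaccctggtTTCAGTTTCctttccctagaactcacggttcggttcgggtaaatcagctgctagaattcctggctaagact
In Oas1a 2 matches overlap just before the start, while in Rsad2 and Stat2 the match is on the opposite strand and farther upstream. Among genes called higher 7.02% of promoters held the core and among those called lower 6.83%, below the share of all promoters.

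Large sets of housekeeping genes were also counted. Of 87 oxidative phosphorylation genes 8 rose (9.20%) and 5 fell (5.75%), of 42 cytosolic ribosomal protein genes 2 rose and 2 fell, and of 76 mitochondrial ribosomal protein genes 7 rose and 5 fell. Without the dim pair 12 oxidative phosphorylation genes were higher and 8 lower, and 6 cytosolic ribosomal genes were higher. With single arrays left out the oxidative phosphorylation counts ran from 3 to 12 higher and 1 to 8 lower, and the mitochondrial ribosomal counts from 2 to 8 higher and 1 to 7 lower. Of 39 proteasome genes 7 rose (17.9%) and 3 fell, the 7 becoming 3 or 4 without control replicate 1 or 2 or 25-week replicate 1 or 2. Of 45 translation initiation genes 4 rose and 6 fell, but 2 fell with median centring or the replicate block and 0 to 4 with any single array left out, where 2 to 4 rose. Of 31 glycolysis genes 2 rose and 5 fell (16.1%), among them Hkdc1 and Pfkm, the muscle phosphofructokinase (-0.93, with 0.0044 on the deposited scale). Antioxidant genes and glutathione transferases had 1 higher of 22 and of 21.

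**Figure D5:**
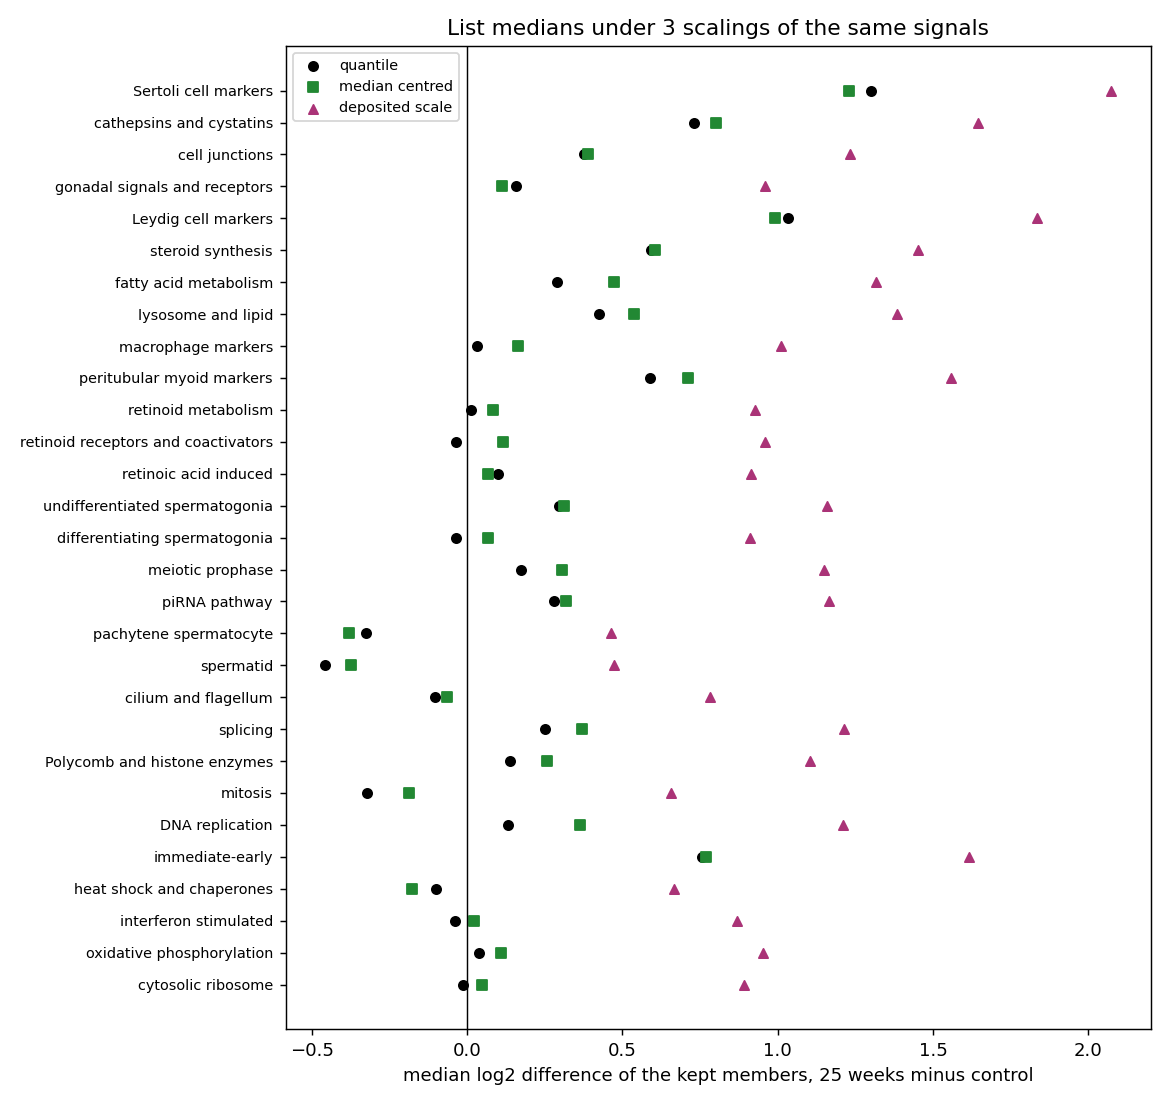
Median log2 difference of the kept members of 29 of the 51 lists under quantile normalization (circles), median centring (squares) and on the deposited scale (triangles). Every list drawn lies to the right of 0 on the deposited scale, where the median change over all kept probe sets is 0.92, and under each scaling Sertoli markers have the highest median and the pachytene and spermatid lists the 2 lowest of the 29 lists drawn, which leave out endothelium (-0.33 under quantile normalization) and others.

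The genes named here were checked for stability as a set. Most were picked for large or low-p changes in these same arrays, so their stability does not describe called genes at large. Over all probe sets, 4017 were called in the main fit and 1787 without 25-week replicate 2. Of the 171 named genes called, 104 were called with each of the 9 arrays left out in turn. There were 137 without the dim pair, 138 with the replicate block and 102 in all of these. Not called without the dim pair, besides those given above, were Cdh2 (adjusted p = 0.0504), Ctsc (0.0518), Bmpr2 (0.124), Egfr (0.0975) and Lyz2 (0.101). Only 84 of the 171 had more than 1 kept probe set, so averaging could change the level of those genes alone. With all kept probe sets of a gene averaged, 126 of the 171 were called and 45 were not. Besides those given above, the genes not called then were Inhbb, Jam2, Egfr, Ahcyl1, Mvk, Csf1r, Mylk, Rdh14, Ncoa3, Dnmt3b, Gtsf1, Spata16, Catsper2, Odf2, Ptbp2, Aurka, Jun, Pdia6, Xbp1 and Stat2. The replicate block also lowered by over 1.5 times the numbers of genes that fell in oxidative phosphorylation (5 to 3), splicing (5 to 3), one-carbon metabolism, cytosolic ribosome and DNA replication (2 to 1 each) and the Wnt and Notch list (2 to 0), and of genes that rose in glycolysis, mitosis and apoptosis (2 to 1 each) and antioxidant genes (1 to 0). It raised the chaperones that fell from 1 to 2. Probe sets of a gene did not always move alike: among 5542 genes with more than 1 kept probe set, 72 had probe sets called in both directions and 342 had at least 2 called, all one way. Between 25 and 18 weeks of the diet, limma called 0 of 27022 probe sets, with 3119 at an unadjusted p under 0.05, so no gene above is shown to depend on the length of the diet.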

How the data were processed

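The deposited values are linear probe set signals (intensity), made by the authors with MAS5, per the submitters' processing notes. The version of MAS5 and its scaling target were not named there. Per the labels' protocols, 100 ng of total RNA went through 2-cycle amplification. Of 45101 probe sets, 64 controls were left out. Signals were compared as log2(signal + 3.26), the pseudocount being their 25th percentile, which understates the fold change of dim probe sets, and were quantile normalized. A probe set was kept if its mean reached the 40th percentile. The filter and pseudocount can change low genes.

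limma 3.58.1 in R 4.3.3 was fitted to all 9 arrays with group and dim-pair terms (5 residual degrees of freedom, eBayes with a trend, Benjamini-Hochberg adjustment). The code of the fit was checked on simulated data drawn from the same model with independent noise. That check cannot test effects of brightness, RNA quality or shared preparations. A platform table named 34945 probe sets by 1 symbol, 932 by several and 9160 by none. Of the first, 34741 were matched to RefSeq (GRCm38.p6), and the rest kept the platform's symbol. The brightest probe set stood for a gene, with those prone to cross-hybridisation last. Beside Lyz1, C1qb and Tuba1a, the named genes Neu1, Wt1, Reep1, Dnmt3l and Snrpe stand on probe sets of that kind. No genome build is named by the files, so gene coordinates are not given apart from RefSeq promoters.

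Same-numbered samples deviated together from their group means (correlations 0.52, 0.52 and 0.69), but so did control 1 with deficient 2 (0.54) and control 2 with deficient 1 (0.53), and the difference between replicates 1 and 2 in controls had a correlation of -0.03 with that at 25 weeks. The replicate block value is given where it ends the call of a gene or moves a count by over 1.5 times.

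Named genes were the 20 highest and 20 lowest called genes whose groups do not overlap and whose sign is the same on 3 scales, and, from each list, the members with the lowest p (at most 6). Others are said to be picked after their values were seen. The 51 lists and the members were chosen with earlier results of these data known. Alternatives were other scalings, pseudocounts, filters, blocks, array weights, arrays left out and averaged probe sets. Precision is limited by the number of arrays.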

Additional observations from a re-analysis of the deposited data

Results flagged for a closer look

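The median signal of the poly-A control probe sets, RNAs added before labelling and outside the comparison of genes, was 129.6 on VAD 25 weeks replicate 1 and 159.8 on replicate 2, above the level on the control arrays (3.49 to 4.68). On VAD 25 weeks replicate 3 it was 4.40. The part of this difference in the changes of the genes was not tested.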

How the results depend on the processing

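The counts of probe sets called higher and lower (2308 and 1709) stayed within 1.5 times with pseudocounts of 1 or 16, other filters, the 6 arrays alone and without the dim pair. Median centring gave 817 lower, and the deposited scale 10571 higher and 7 lower. Without the dim-pair term limma called 0 and 0 (lowest adjusted p 0.0857, with 3209 at an unadjusted p under 0.05). The replicate block over the 6 arrays gave 667 and 282, and with the dim-pair term 1042 lower. Array weights gave 3611 and 2981, no trend 848 lower, and a change of at least 1 gave 1229 and 515. Leaving out single arrays gave 1107 to 2388 higher and 680 to 1807 lower, the lowest without 25-week replicate 2. Control replicates 1 and 2 and 25-week replicate 1 also moved a count by over 1.5 times.

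On the deposited scale 33 named genes called lower had a positive difference, where the median change over kept probe sets was 0.92: Pfkm 0.0044, Nrtn 0.027, Fdft1 0.059, Cdca8 0.066, Ccna1 0.076, Ddit3 0.090, Dnal1 0.12, Acr 0.14, Ehmt2 0.14, Aurka 0.14, Syce1 0.17, Catsper2 0.17, Tssk1 0.20, Pnpla2 0.21, Nsd2 0.22, Plin2 0.22, Jam2 0.23, Cdh2 0.23, Hspa2 0.23, Rsph9 0.23, Rsph6a 0.24, Gtsf1 0.27, Ncoa3 0.28, Pdia6 0.29, Kif23 0.29, Spata16 0.30, Odf2 0.31, Shmt1 0.31, Adam3 0.32, Tekt3 0.34, Dnajb3 0.34, Spag6 0.36 and Egfr 0.43. With all probe sets averaged Nr2c2 was at -0.053. The cause of these changes was not tested. Dim signals limit both arrays of the dim pair.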
